A study of Mus musculus with 2 samples.

Results

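The Mir106b-25 and Mir106a-363 clusters are paralogs of the Mir17-92 cluster, and their miRNA genes were taken by symbol from the mouse annotation: 9 of the 2202 miRNA genes counted. Mir106b, Mir93 and Mir25 form the Mir106b-25 cluster, and Mir106a, Mir18b, Mir20b, Mir19b-2, Mir92-2 and Mir363 form the Mir106a-363 cluster. They were measured by microRNA-seq, which sequences short RNA inserts (under 30 nt, per the labels), in hearts of female B6CASTF1/J mice, a first-generation cross of C57BL/6J with CAST/EiJ, at 10 days of age. The labels name no treatment and give 1 group with 2 biological replicates, filed as separately numbered biosamples under 1 donor entry, and do not say outright that the hearts came from separate animals. Reads of both parental alleles were counted on mm10, an assembly of C57BL/6J, and how CAST/EiJ reads map to it was not tested. No p-value across animals was therefore computed, spreads between the hearts rest on n = 2, and part of that spread may be technical.

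Each cluster is known to be transcribed as 1 long precursor, from which Drosha and Dicer cut separate hairpins and then the mature miRNAs. A mature miRNA finds its targets mainly through its seed, bases 2 to 8 from the 5′ end, so miRNAs with the same seed can share targets. The miR-17 family is best known for promoting cell-cycle entry, and the Mir17-92 cluster is known to promote cardiomyocyte proliferation in young mice. The Mir106b-25 hairpins sit in the gene of Mcm7, a subunit of the replicative DNA helicase.

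The mature miRNAs named as the main arm of each hairpin are printed because their seeds and their few differing bases decide how reads can be told apart. They come from RefSeq (GRCm38.p6), where all 9 members and the 6 genes of Mir17-92 were found, and the seed is in capitals. The first 3 lines are the Mir106b-25 cluster on the minus strand of chromosome 5 and the next 6 the Mir106a-363 cluster on the minus strand of chromosome X.
Mir106b: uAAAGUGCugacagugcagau
Mir93: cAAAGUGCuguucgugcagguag
Mir25: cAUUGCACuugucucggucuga
Mir106a: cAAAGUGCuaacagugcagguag
Mir18b: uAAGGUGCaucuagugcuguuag
Mir20b: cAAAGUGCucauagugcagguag
Mir19b-2: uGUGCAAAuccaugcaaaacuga
Mir92-2: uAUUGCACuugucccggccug
Mir363: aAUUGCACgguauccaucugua
The paralogs in the Mir17-92 cluster, on the plus strand of chromosome 14, are shown for comparison.
Mir17: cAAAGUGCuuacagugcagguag
Mir18: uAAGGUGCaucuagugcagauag
Mir19a: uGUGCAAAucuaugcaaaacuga
Mir20a: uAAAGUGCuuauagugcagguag
Mir19b-1: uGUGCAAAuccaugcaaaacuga
Mir92-1: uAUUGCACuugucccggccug
The seed AAAGUGC of the miR-17 family is held by Mir106b, Mir93, Mir106a and Mir20b, and by Mir17 and Mir20a. The seed AUUGCAC of the miR-92 family is held by Mir25, Mir92-2 and Mir363, and by Mir92-1. Mir18b and Mir18 have the seed AAGGUGC, and Mir19b-2, Mir19a and Mir19b-1 the seed GUGCAAA. The Mir106b-25 cluster has no hairpin of the miR-18 or miR-19 family.

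The Mir106b-25 cluster spans 498 nt on chromosome 5 (138165321 to 138165818, mm10), in the order Mir106b, Mir93, Mir25 along its transcript. All 3 hairpins lie in intron 13 of 14 of a protein-coding transcript of Mcm7, and Mir93 and Mir25 also lie in an exon of a retained-intron transcript of Mcm7. The Mir106a-363 cluster spans 875 nt on chromosome X (52741693 to 52742567), and the annotation gives it no host gene that covers it. Exons of the noncoding gene Kis2 overlap the Mir106a hairpin by at most 5 bases. The 6 Mir17-92 hairpins lie in an exon of the noncoding host gene Mir17hg on chromosome 14 (115043671 to 115044506).

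**Figure D1:**
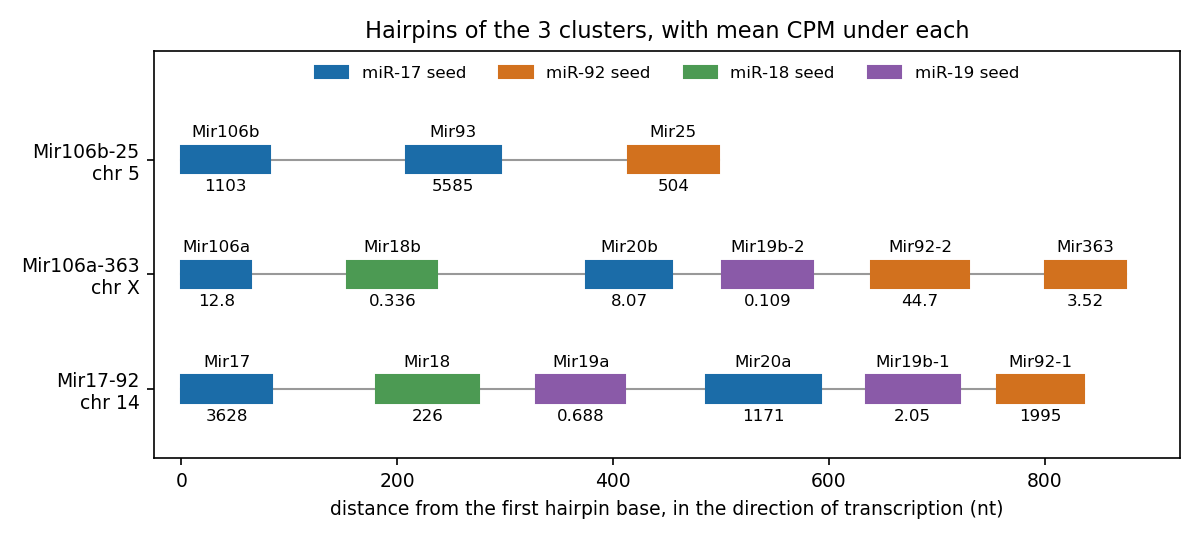
Hairpins of the 3 clusters drawn to scale from the first hairpin base in the direction of transcription (x axis, nt), coloured by seed family, with the mean CPM of the 2 hearts under each box. Every Mir106b-25 hairpin stood at 504 CPM or more, while no Mir106a-363 hairpin was above 44.7 CPM.

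Levels are read counts on the gene strand, or CPM, which scale them to 1000000 reads on named miRNA genes (4260561 in replicate 1 and 4583025 in replicate 2). An insert of this length holds a whole mature miRNA, so counts were not divided by hairpin length. The tables give 1 count per hairpin and do not separate its 5p and 3p arms. Reads placed at more than 1 position, 38.9% and 38.0% of all reads, stand in a category of their own and are in no gene's count. The limit that a count of 0 allows, 3 counts, was 0.704 CPM for replicate 1 and 0.655 CPM for replicate 2. No molecular identifiers are named in the labels, so intervals and floors cover counting error and nothing else. The cardiac myosin miRNAs Mir208a, Mir208b and Mir499 were all present, with a summed level of 9644 and 6536 CPM, while 5 of the 6 neuronal genes of the Mir124a and Mir9 groups had 0 counts in both hearts. The mature miR-124 and miR-9 each come from several genomic copies, so reads placed at more than 1 position are missing from these neuronal counts, and the zeros are no check of the tissue.

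The Mir106b-25 cluster was counted about 100-fold above the Mir106a-363 cluster in both hearts. In replicate 1, Mir106b-25 had 32229 counts and Mir106a-363 had 313, a ratio of 103-fold (log2 6.69, exact 95% interval 6.53 to 6.85). In replicate 2, Mir106b-25 had 31255 counts and Mir106a-363 had 300, a ratio of 104-fold (6.70, 6.54 to 6.87). The 2 hearts thus gave the same ratio within counting error, and the difference between clusters far exceeded the spread between hearts. Mir106b-25 averaged 7192 ± 527 CPM and Mir106a-363 averaged 69.5 ± 5.66 CPM (SD, n = 2 each). As a share of the counts on named genes, Mir106b-25 took 0.756% (exact Clopper-Pearson 95% interval 0.748 to 0.765) and 0.682% (0.674 to 0.690), and Mir106a-363 took 0.00735% (0.00656 to 0.00821) and 0.00655% (0.00583 to 0.00733). In a bulk heart library, fewer cells with a miRNA and less of it per cell cannot be told apart.

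Mir93, a miR-17 family member, led the Mir106b-25 cluster. It had 25748 counts in replicate 1 and 23500 in replicate 2, or 6043 and 5128 CPM, and ranked 28 and 29 of all 2202 genes. Mir106b, the first hairpin of the transcript and of the same family, had 4780 and 4965 counts, or 1122 and 1083 CPM, and ranked 76 and 72. Mir25, the miR-92 family member at the 3′ end, had 1701 and 2790 counts, or 399 and 609 CPM, and ranked 107 and 87. The order Mir93, Mir106b, Mir25 was the same in both hearts, and the levels of the 3 genes did not overlap between genes.

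Although the 3 hairpins share a precursor, their counts were unequal. Whether the libraries captured the 3 mature sequences evenly was not tested, so these are ratios of counts. Mir93 exceeded Mir106b 5.39-fold in replicate 1 and 4.73-fold in replicate 2, and the log2 intervals (2.38 to 2.47 and 2.20 to 2.29) did not overlap. Mir93 exceeded Mir25 15.1-fold and 8.42-fold (3.85 to 3.99 and 3.02 to 3.13), so the hearts differed more in this ratio. Mir93 made up 79.9% and 75.2% of the cluster's counts, Mir106b 14.8% and 15.9%, and Mir25 5.28% and 8.93%. For each of the 3 genes the exact intervals of the share in the 2 hearts did not overlap.

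**Figure D2:**
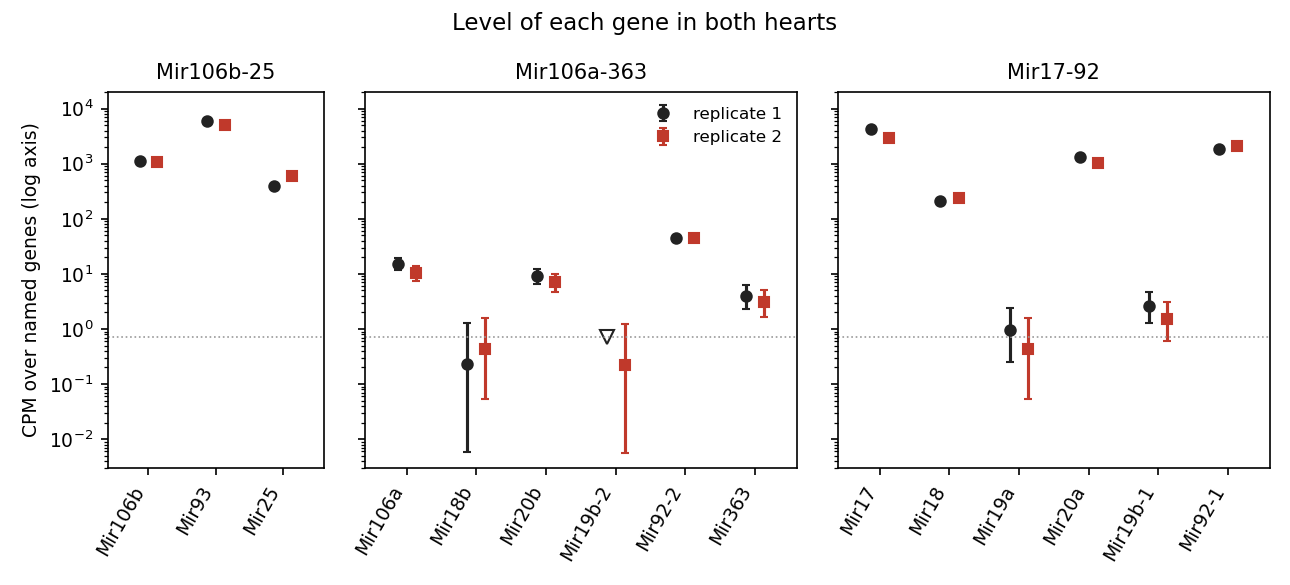
CPM over named genes (y axis, log scale) of each gene of the 3 clusters in replicate 1 (circles) and replicate 2 (squares), with exact 95% Poisson intervals. The open triangle marks a count of 0 drawn at the 3-count floor, and the dotted line is the floor of replicate 1. Mir18b and Mir19b-2 lie below the floor in both hearts, and the other 4 Mir106a-363 genes lie between 3.05 and 44.8 CPM.

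In the Mir106a-363 cluster, 4 of 6 genes were detected at 10 or more counts in both hearts, against all 3 of Mir106b-25. Mir92-2, of the miR-92 family, was the highest, with 191 counts in replicate 1 and 204 in replicate 2, or 44.8 and 44.5 CPM. Mir106a, the first hairpin and a miR-17 family member, had 65 and 47 counts (15.3 and 10.3 CPM). Mir20b, of the same family, had 39 and 32 counts (9.15 and 6.98 CPM). Neither member of the miR-17 family reached the level of Mir92-2 in any library.

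Mir363, the last hairpin, had 17 and 14 counts, or 3.99 and 3.05 CPM. Mir18b had 1 count in replicate 1 and 2 in replicate 2, and Mir19b-2 had 0 and 1, so neither was distinguishable from 0 in these counts. Among the detected members Mir92-2 lay above Mir106a and Mir20b, and Mir363 lay lowest. Mir20b and Mir106a were not separated in replicate 2: the log2 ratio of Mir20b over Mir106a was -0.73 (-1.35 to -0.14) in replicate 1 and -0.55 (-1.25 to 0.12) in replicate 2. In replicate 1 the exact Poisson intervals of Mir106a (50.2 to 82.8 counts) and Mir92-2 (165 to 220 counts) did not meet. The interval of Mir363 (9.90 to 27.2 counts in replicate 1, 7.65 to 23.5 in replicate 2) met that of Mir20b in replicate 2 (21.9 to 45.2 counts) and not in replicate 1 (27.7 to 53.3 counts).

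**Figure D3:**
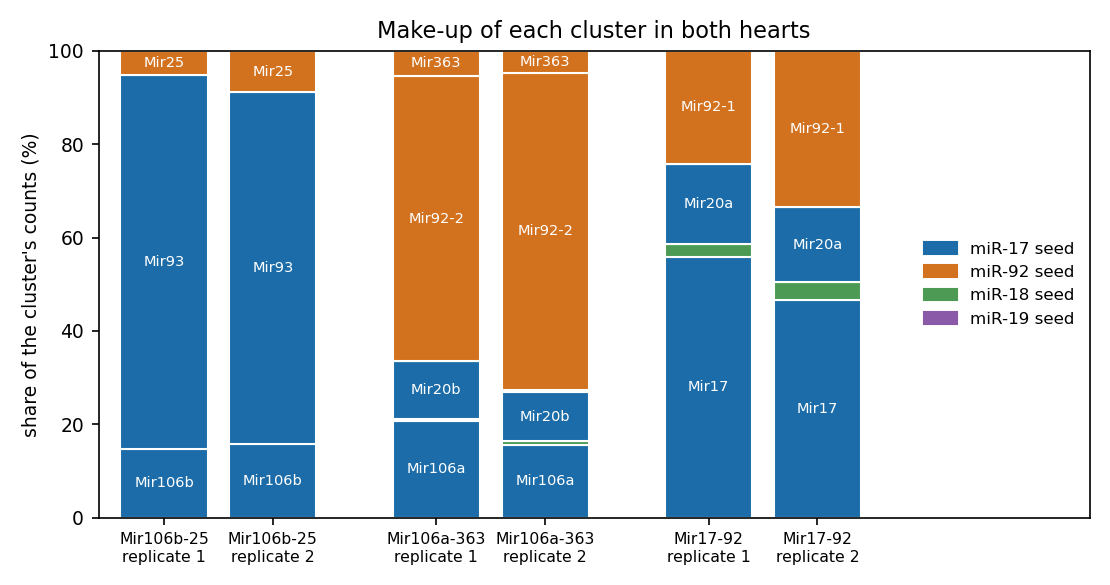
Share of each cluster's summed counts (y axis, %) taken by each gene in replicates 1 and 2, coloured by seed family. The miR-17 seed genes Mir93 and Mir106b dominate Mir106b-25, while Mir92-2 takes 61.0% and 68.0% of the counted Mir106a-363 reads.

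The share held by each seed family therefore differed between the clusters. In Mir106b-25 the miR-92 family, which is Mir25 alone, took 5.28% (exact 95% interval 5.04 to 5.53) and 8.93% (8.61 to 9.25) of the cluster's counts. In Mir106a-363 Mir92-2 alone took 61.0% (55.4 to 66.5) and 68.0% (62.4 to 73.2), Mir106a 20.8% and 15.7%, and Mir20b 12.5% and 10.7%. These shares cover uniquely placed reads only, which bears most on the members whose mature miRNA has a second copy.

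Copies of the same mature sequence limit 2 members. The mature sequence of Mir92-2 is also in Mir92-1, and that of Mir19b-2 also in Mir19b-1, while the main mature sequence of each of the other 7 members is in 1 hairpin of the tables. The windows around the duplicated miRNAs are printed to show which bases could place a read, with the run that both hairpins share in capitals. In GRCm38.p6 the windows lie at chrX:52741849-52741878 (minus strand) for Mir92-2, chr14:115044472-115044501 (plus) for Mir92-1, chrX:52741986-52742018 (minus) for Mir19b-2 and chr14:115044353-115044385 (plus) for Mir19b-1.
Mir92-2: aaaGUAUUGCACUUGUCCCGGCCUGaggaa
Mir92-1: augGUAUUGCACUUGUCCCGGCCUGuugag
Mir19b-2: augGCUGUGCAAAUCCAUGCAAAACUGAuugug
Mir19b-1: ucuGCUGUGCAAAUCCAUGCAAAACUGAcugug
The shared run is 22 nt for the miR-92a hairpins and 25 nt for the miR-19b hairpins, and in each it ends with the last base of the mature miRNA. A read of exactly the mature sequence matches both hairpins, and a read that runs 1 base past its 3′ end meets a different base in each hairpin of a pair. How many reads of these miRNAs went to the multimapping category was not tested. Whether misread bases placed reads of 1 copy on the other was not tested either.

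Without Mir92-2 and Mir19b-2, the Mir106a-363 cluster had 122 counts in replicate 1 and 95 in replicate 2. Mir106b-25, none of whose members is so affected, then exceeded it 264-fold and 329-fold. Both dropped members belong to the lower cluster, so dropping them could only raise the ratio and is no check of the clusters' order. The size of the ratio moved by over 2-fold. Mir19a, whose main mature sequence is in 1 hairpin, had 4 and 2 counts.

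Set against the Mir17-92 cluster, the Mir106b-25 cluster was counted at nearly the same total of uniquely placed reads. Reads of exactly the mature sequence of Mir92-1 or Mir19b-1 match 2 hairpins. Those placed at more than 1 position are missing from the Mir17-92 total, and their number was not tested. In replicate 1, Mir106b-25 had 32229 counts and Mir17-92 had 32807 (log2 ratio -0.026, exact 95% interval -0.05 to -0.0034). In replicate 2, Mir106b-25 had 31255 counts and Mir17-92 had 29079 (0.10, 0.081 to 0.127). The sign differed between the hearts, so no order of these clusters is given. Without Mir92-1 and Mir19b-1, whose sequences have copies, Mir106b-25 exceeded Mir17-92 1.30-fold and 1.62-fold. This step took counts from Mir17-92 alone, so it could only raise the ratio. Mir106a-363 stood far below Mir17-92, by 105-fold in replicate 1 and 96.9-fold in replicate 2.

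With paralogs paired by place in the cluster, the Mir106b-25 genes did not lie on 1 side of Mir17-92. Mir93 exceeded Mir20a (5633 and 4671 counts) 4.57-fold in replicate 1 and 5.03-fold in replicate 2. Mir106b stood below Mir17 (18306 and 13564 counts), which exceeded it 3.83-fold and 2.73-fold. Mir25 stood below Mir92-1 (7943 and 9742 counts), which exceeded it 4.67-fold and 3.49-fold. Each of these 3 directions was the same in both hearts, with log2 intervals away from 0. Other pairs of the same seed can differ: Mir106b (4780 and 4965 counts) lay below Mir20a in replicate 1 and above it in replicate 2. Mir93 had more counts than Mir17 in both hearts.

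**Figure D4:**
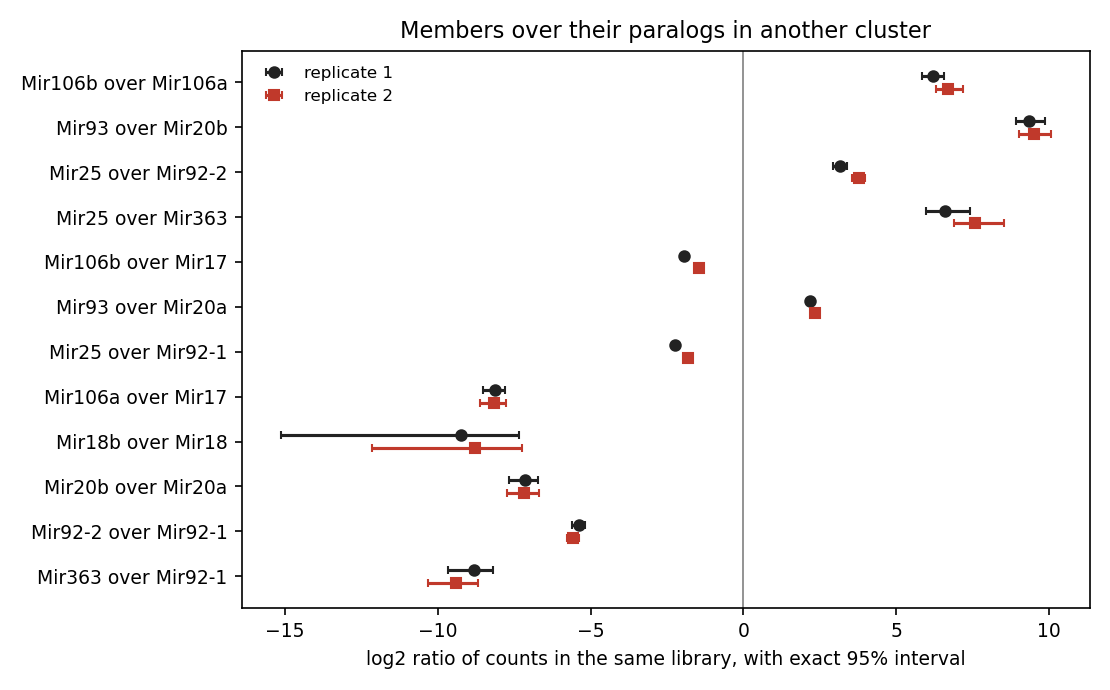
Log2 ratio of the counts of a member over its paralog in another cluster (x axis), in replicate 1 (circles) and replicate 2 (squares), with exact 95% intervals that cover counting error. Paralogs are paired by place in the cluster. The 4 ratios over Mir106a-363 genes lie above 0. The plotted ratios of Mir106a-363 genes over Mir17-92 genes (Mir19b-2 over Mir19b-1 is not plotted) lie below -5. Mir93 over Mir20a is the only plotted ratio of Mir106b-25 over Mir17-92 genes above 0.

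Each detected X-linked gene was far below its Mir17-92 paralog. Mir17 exceeded Mir106a 279-fold in replicate 1 and 286-fold in replicate 2, and Mir20a exceeded Mir20b 143-fold and 144-fold. Mir106a differs from Mir17 by 1 base of the mature miRNA (U10A, the base of Mir17, its position from the 5′ end and the base of Mir106a), and Mir20b from Mir20a by 2 bases (U1C and U10C). Mir92-1 exceeded Mir92-2, of the same mature sequence, 41.5-fold and 47.6-fold. Whether misread bases placed Mir17 reads on Mir106a, Mir20a reads on Mir20b or Mir92-1 reads on Mir92-2 was not tested.

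Mir18b had 1 and 2 counts against 910 and 1093 for Mir18, with log2 ratios of Mir18b over Mir18 of -9.25 (-15.13 to -7.35) and -8.77 (-12.14 to -7.24). Mir18b lay under the 3-count floor in both hearts, so only the intervals of these ratios can be read. The mature miRNAs of these genes share a run of 17 nt. Mir19b-2 had 0 and 1 counts against 11 and 7 for Mir19b-1, and no ratio is given for a gene with a count of 0.

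Between the clusters named first, each Mir106b-25 gene exceeded its paralogs of the same seed on chromosome X. Mir106b exceeded Mir106a 73.0-fold in replicate 1 and 105-fold in replicate 2, and the mature miRNAs differ at 3 positions (C1U, A10G and G20A, the base of Mir106a first). Mir93 exceeded Mir20b 652-fold and 723-fold, and these differ at 3 positions (C10G, A11U and A13C, the base of Mir20b first). Mir25 exceeded Mir92-2 8.89-fold and 13.6-fold. It exceeded Mir363 97.2-fold and 192-fold. All 4 ratios had log2 intervals above 0 in both hearts, and the smallest was that over Mir92-2, the detected member with a copy elsewhere.

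Summed over all genes of the tables that carry the miR-17 seed, Mir106b-25 had more counts than either paralog cluster. It held 55.9% (exact 95% interval 55.5 to 56.4) of those counts in replicate 1 and 60.9% (60.4 to 61.3) in replicate 2, through Mir93 and Mir106b. Mir106a-363 held 0.191% and 0.169%, and Mir17-92 held 43.9% and 39.0%. The remaining gene with this seed, Mir6383, had 0 counts in both hearts. How evenly the libraries captured different mature sequences was not tested, so these are shares of counts.

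The miR-92 seed was counted mainly from Mir17-92. Mir106b-25 held 16.8% and 21.4% of its counts through Mir25, Mir106a-363 held 2.05% and 1.67%, and Mir17-92 held 78.3% and 74.8% through Mir92-1. The other genes with this seed, Mir32 (245 and 229 counts), Mir92b (50 and 48) and Mir367 (0 in both), held 2.91% and 2.13%. Reads of exactly the miR-92a sequence cannot be given to Mir92-2 or Mir92-1 by their bases alone, so the shares of both carry that limit. The miR-18 seed was counted almost wholly from Mir18, with Mir18b holding 0.110% and 0.183%, and the 3 miR-19 genes had 15 and 10 counts in all.

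Levels of the 2 hearts were then compared gene by gene, as replicate 1 over replicate 2, with an exact two-sided binomial test on library sizes scaled by the trimmed mean of M values (TMM) and Benjamini-Hochberg adjustment over the 375 genes that had at least 20 counts when both libraries were added. The test compares these 2 libraries and covers counting error only. Of the 9 members 7 were tested, Mir18b and Mir19b-2 having too few counts, and 2 passed, against 55.2% of all genes tested. In replicate 1 Mir93 was higher (29.1% of all tested genes were higher there), and in replicate 2 Mir25 was higher (26.1% were higher there). No member passed and was also 2-fold or more apart, against 10.7% of all tested genes. The median log2 ratio of the 7 members was 0.17, against 0.015 over all tested genes.

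The 2 members that passed moved in opposite directions within the Mir106b-25 cluster. Mir93 had a log2 ratio of 0.17 (exact 95% interval 0.15 to 0.20), which is 1.13-fold, with an adjusted p of 1.6e-38 by the exact binomial test. Mir25 had a log2 ratio of -0.67 (-0.76 to -0.59), which is 1.60-fold higher in replicate 2, with an adjusted p of 7.5e-53 by the same exact test. Mir106b, which has the seed of Mir93, had -0.016 (-0.074 to 0.042; exact binomial adjusted p = 0.71). The summed Mir106b-25 cluster had a ratio of 0.08 (0.061 to 0.106).

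In Mir17-92 the 4 tested genes passed, and those with the seed of Mir93 or Mir25 differed in the same direction as that gene. Mir17 (0.47) and Mir20a (0.31), with the miR-17 seed, were higher in replicate 1, and Mir92-1 (-0.26), with the miR-92 seed, and Mir18 (-0.23) were higher in replicate 2. Mir32 (0.14) and Mir92b (0.10), which also have the miR-92 seed, did not pass (exact binomial adjusted p = 0.41 and 0.86). With 2 libraries and more than 1 in 2 tested genes past the test, this pattern is a description of these hearts.

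**Figure D5:**
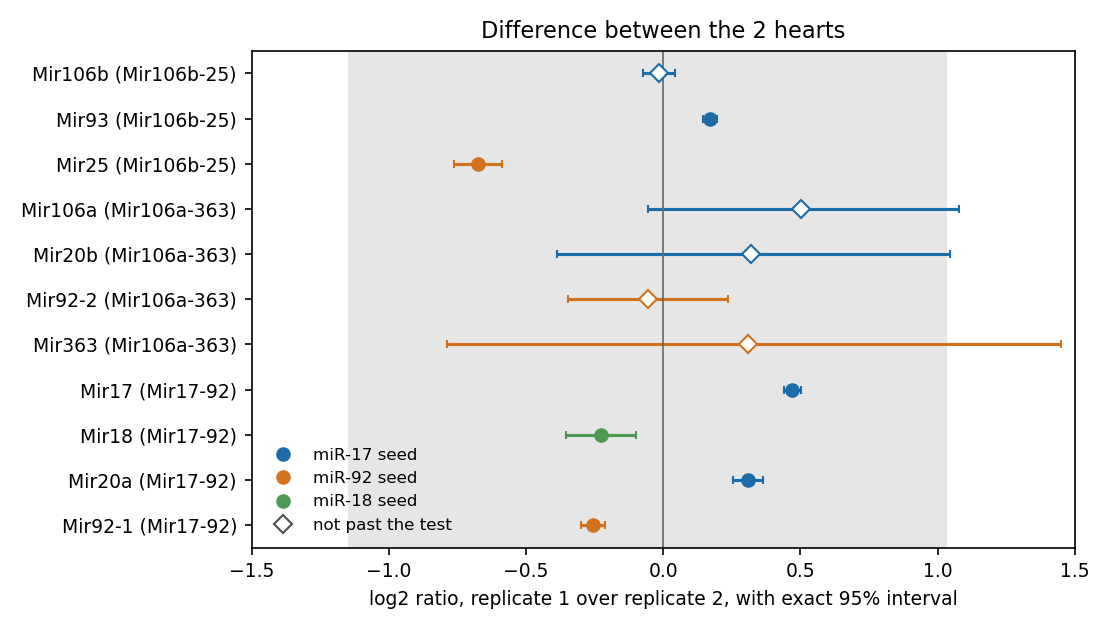
Log2 ratio of replicate 1 over replicate 2 (x axis) for the tested genes of the 3 clusters, with exact 95% intervals, coloured by seed family. Filled circles passed the exact binomial test at an adjusted p under 0.05, open diamonds did not, and the grey band runs from the 5th to the 95th percentile of all 375 tested genes (-1.15 to 1.03), inside which all points lie.

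No tested Mir106a-363 gene passed. Their log2 ratios were 0.50 (-0.057 to 1.08) for Mir106a, 0.32 (-0.39 to 1.05) for Mir20b, -0.056 (-0.35 to 0.24) for Mir92-2 and 0.31 (-0.79 to 1.45) for Mir363, with exact binomial adjusted p from 0.12 to 0.83. At 31 to 395 counts over both libraries, these intervals do not leave out differences of the size seen for Mir93 in any of the 4 genes. The intervals of Mir106a, Mir20b and Mir92-2 lie above the -0.67 of Mir25.

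Markers of other cell types also differed between the hearts, where higher in a replicate means past the binomial test. Of all tested genes, 29.1% passed as higher in replicate 1 and 26.1% as higher in replicate 2. The 3 erythroid genes Mir144, Mir451a and Mir486 summed to 550 CPM in replicate 1 and 1048 CPM in replicate 2, and all 3 were higher in replicate 2. The 4 white blood cell genes Mir142, Mir150, Mir155 and Mir223 summed to 2295 and 2447 CPM. Of these, Mir142 and Mir155 were higher in replicate 2, while Mir150 and Mir223 did not pass. The 3 endothelial genes summed to 87599 and 138494 CPM, with 2 higher in replicate 1 and 1 in replicate 2. The liver gene Mir122 had 76.3 and 141 CPM. The 3 cardiac muscle genes were all higher in replicate 1. None of these lists was at 0 in either heart, and their part in the differences of Mir93 and Mir25 was not tested.

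By level over the 2 libraries, the genes nearest to Mir93 were Mir130a (24941 and 23444 counts), Mir100 (27855 and 21436) and Mirlet7f-2 (23987 and 20651), at distances of 0.05, 0.17 and 0.21 in log2(CPM + 0.5). The nearest to Mir92-2 were Mir1198 (181 and 197 counts), Mir1a-2 (185 and 245) and Mir190a (225 and 224), at 0.09, 0.27 and 0.27. With 2 libraries this likeness is mostly one of level.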

How the data were processed

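The values deposited by the authors are raw read counts per miRNA gene, in 1 table per heart, on assembly mm10 with GENCODE annotation M21, per the file headers. A table holds 3 count columns: ignoring strand, for the strand of the gene, and for the other strand (which is which was read from the values). Its 4 category rows hold reads that fall on no single gene. Neither aligner nor counter is given in the sources used here.

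All 2202 IDs matched the M21 annotation. The gene-strand column was used, with category rows left out of library sizes, so that named genes held 39.5% and 44.9% of reads in replicates 1 and 2. CPM, TMM factors (edgeR 4.0.16, R 4.3.3), exact intervals at 95% and the exact binomial test (scipy 1.17.1, Python 3.11.15) were computed from the deposited counts. Ratios of single genes used a prior count of 0.5. CPM and shares of named genes used the counts of all 2202 miRNA genes. Genes picked for description were the members, Mir17-92, genes with a member's seed, the 3 nearest genes in level and listed cell type markers. The members and lists were chosen with earlier results of these data known. Alternatives included DESeq2 1.42.0 size factors, other denominators, filters and the column without strand. The DESeq2 size factor was 1 for each library, so that setting left the counts unscaled. Signal tracks were not used here.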

Additional observations from a re-analysis of the deposited data

Results flagged for a closer look

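Reads placed at more than 1 position lie outside the gene counts and exceed the 3 counts that a count of 0 allows. They numbered 4193785 in replicate 1 and 3872896 in replicate 2, and they bear on Mir92-2 and Mir19b-2, whose mature sequences each have a second copy. No member had more than 3 reads on the strand opposite to its gene in either library: Mir106b had 1 such read in replicate 2 and the other 8 members had 0.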

How the results depend on the processing

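Of 178 values under alternatives, 60 leave out a replicate, and of the other 118, 84 were kept, 32 moved and 2 changed sign. Using all reads as the denominator, or leaving out the most abundant gene, rescales all members alike within a library. The column without strand does not rescale all genes alike. Members kept nearly the same counts in it, while reads on named genes fell to 3107037 in replicate 1 and 3108772 in replicate 2. With counts without regard to strand, all reads as the denominator, and no most abundant gene, the Mir106b-25 cluster stood at 10214, 3026 and 8487 CPM, and the Mir106a-363 cluster at 98.6, 29.2 and 82.0 CPM. Without members of shared mature sequence, Mir106a-363 stood at 24.7 CPM and the log2 ratio of Mir106b-25 over Mir106a-363 was 8.20. With counts divided by hairpin length that ratio was 6.63, against 6.69. Leaving out a replicate gave 6820 to 7565 CPM for Mir106b-25, 65.5 to 73.5 CPM for Mir106a-363 and 6.69 to 6.70 for their ratio. The ratio of Mir106b-25 over Mir17-92, with alternatives chosen after seeing the data, was 0.039 as a mean of the hearts and -0.026 without replicate 2 or 0.10 without replicate 1. With total counts in place of TMM, the ratios of replicate 1 over replicate 2 of Mir106b (0.050; exact binomial adjusted p = 0.14) and Mir92-2 (0.0105; exact binomial adjusted p = 1.0) changed sign, and neither passed in any setting. Of the members, 0 passed the test and were 2-fold apart, against 2 past the test alone, and 2 passed under every other setting. No paired analysis was possible because all samples form 1 group. Depth limits Mir18b, which lies under the 3-count floor. Mir19b-2 lies under it too, but reads of exactly its mature sequence also match Mir19b-1, and how many were left out was not tested.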
